A study of Caenorhabditis elegans with 2 samples.

Results

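A set of 9 genes of ribosome biogenesis and the nucleolus, rbd-1, fib-1, pro-1, pro-2, pro-3, nst-1, lpd-6, lpd-7 and ncl-1, was examined for binding of the R02D3.7 protein in Caenorhabditis elegans. They are 9 of 19973 nuclear protein-coding genes in the Ensembl annotation of WBcel235. The set was chosen by function and by where ChIP-seq summits and their signal fell in an earlier look at these same peaks, so the signal, rank and position of each gene's summits are given as a description and no test was made on them. R02D3.7, which the annotation names rcat-1, is a protein with a C2H2-type zinc finger domain.

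The study measured where an eGFP-tagged R02D3.7 protein was bound, by chromatin immunoprecipitation and sequencing (ChIP-seq). All libraries come from whole L2 larvae, the second larval stage, of mixed sex and a single strain, OP218, whose labels give the mutation unc-119(ed3) on chromosome III and the insertion wgIs218. There was 1 group with 2 biological replicates, both carrying the same mutation and insertion, and no second genotype, stage or treatment. Because the protein was a tagged copy made from an inserted transgene, and because whole animals were used, the lists show where the tagged protein was enriched in a mixture of all larval tissues.

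Ribosomes are assembled in the nucleolus. There RNA polymerase I makes a long precursor RNA that is cut, chemically modified and folded onto ribosomal proteins to give a small and a large subunit. The modification is guided by small nucleolar RNAs in protein complexes (snoRNPs) of the box C/D and box H/ACA kinds, and separate sets of assembly proteins carry each subunit to the cytoplasm. In C. elegans the size of the nucleolus varies with growth, and the B-box protein NCL-1 limits it.

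The promoter window of a gene began 1000 bp before each annotated 5′ end and closed 200 bp after it. Of the deposited lists, 4 on the ce11 build were read: 30000 candidate regions for replicate 1, 30000 for replicate 2, 30000 from joined reads (the joined list), and the peaks retained by the irreproducible discovery rate (IDR) step, a method that uses how well the ranks of 2 replicates match to set how many peaks are kept. The IDR set held 542 peaks, and these were the 542 strongest regions of the joined list. Their signal ran from 39.1 to 1699 with a median of 69.3, while the median candidate of the joined list had 14.9. The candidate lists are described by their submitters as peaks and background, so a candidate of low rank is not called a peak here. Read depth is unknown, and signal values are the authors' own on a scale that is not stated. In the 528 IDR peaks matched in both replicate lists the replicate 1 signal was a median 2.76 times the replicate 2 signal (quartiles 2.19 and 3.56), so ranks rather than signals were set side by side between replicates.

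An IDR summit lay in the promoter window of 3 of the 9 genes, rbd-1, fib-1 and pro-1. Their sequences are shown because they hold the strongest binding in the set. Each is the joined-list summit with 50 bp on either side, written 5′ to 3′ along the gene's strand, from the RefSeq copy of WBcel235 (ce11). The rbd-1 stretch is chrIV:12724809-12724909 on the plus strand, the fib-1 stretch is chrV:15002266-15002366 on the minus strand and the pro-1 stretch is chrII:10542101-10542201 on the minus strand. All 3 lie between genes and touch no annotated exon. Capitals mark the words CGTAAA and, in rbd-1, CTCCGA, which are taken up further on.
rbd-1: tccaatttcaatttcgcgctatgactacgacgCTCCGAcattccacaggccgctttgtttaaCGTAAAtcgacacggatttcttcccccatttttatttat
fib-1: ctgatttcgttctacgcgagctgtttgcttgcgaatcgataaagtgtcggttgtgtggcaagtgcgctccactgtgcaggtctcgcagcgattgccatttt
pro-1: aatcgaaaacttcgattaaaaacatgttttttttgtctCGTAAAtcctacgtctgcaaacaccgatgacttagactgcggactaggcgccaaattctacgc

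Another IDR peak, upstream of pro-3, had its summit just outside the window. It is shown as a 30-base stretch over its summit, chrV:19119403-19119432 on the minus strand, since the summit falls in the first exon of the neighbouring gene Y39B6A.13. Capitals mark ACGCGC and CGTAAA. The candidate in front of lpd-7 is shown as the one with the highest joined signal among the 9 genes outside the IDR set, an order that the replicates do not share. Its summit stretch at chrIII:7572980-7573080 on the plus strand, between genes, hold none of the marked words.
pro-3 upstream peak: ccaACGCGCcttgtttacCGTAAAtcgaca
lpd-7: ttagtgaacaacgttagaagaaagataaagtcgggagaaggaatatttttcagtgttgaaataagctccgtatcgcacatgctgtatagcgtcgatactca

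The small subunit gene rbd-1 (WBGene00004315, T23F6.4) had the strongest binding of the 9. It encodes a protein with several RNA recognition motifs, related to yeast Mrd1 and needed for processing of the small subunit RNA. The gene runs from 12724986 to 12730095 on chromosome IV, plus strand. At its promoter the summit had a signal of 765 in the joined list, 545 in replicate 1 and 218 in replicate 2. These values ranked 8 of 30000 in the joined list, 9 in replicate 1 and 7 in replicate 2, so the site was among the 9 strongest of every list. The peak covered 12724706 to 12724983 and its summit lay 127 bp upstream of the 5′ end, with 124 bp in replicate 1 and 125 bp in replicate 2. The summit was also 99 bp upstream of T23F6.3, a gene with a RING-type domain that is transcribed away from rbd-1 across a gap of 226 bp. Assigned to the nearer 5′ end alone, the peak would go to T23F6.3. A second, weak candidate stood in an intron of rbd-1, 418 bp upstream of its other annotated 5′ end, with a joined signal of 20.5 at rank 4120.

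The box C/D gene fib-1 (WBGene00001423, T01C3.7) encodes fibrillarin, the enzyme that adds methyl groups to the ribose of ribosomal RNA. It runs from 15000651 to 15002223 on chromosome V, minus strand. Its signal was 110 in the joined list, 75.1 in replicate 1 and 35.1 in replicate 2, at ranks 164, 180 and 142. The peak covered 15002151 to 15002480, and the summit lay 93 bp upstream of the 5′ end in the joined list and in replicate 1, and 112 bp upstream in replicate 2. This site too lies between a divergent pair of genes, 320 bp apart. The other is mut-15, a gene of the mutator group that acts in small RNA silencing, whose 5′ end was 227 bp from the summit.

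The large subunit gene pro-1 (WBGene00004185, R166.4) encodes a WD-repeat protein of pre-rRNA processing, and its loss in C. elegans disturbs germ line development. It runs from 10539438 to 10541996 on chromosome II, minus strand. The pro-1 signal was 167 in the joined list, 125 in replicate 1 and 44.6 in replicate 2. It ranked 104 in the joined list and 106 in replicate 1, and in replicate 2 stood 3 places above its joined rank. The summit lay 155 bp upstream of the 5′ end in the joined list and in replicate 1, and 157 bp upstream in replicate 2. No other protein-coding window held this summit, and the next gene upstream, mnk-1, a MAP kinase-interacting kinase gene on the same strand, ended 425 bp away. Of the 9 genes, pro-1 is the one whose IDR peak could be given to it alone.

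Signal order among rbd-1, pro-1 and fib-1 was the same in both replicates. The joined list and the IDR set had that order too, but they come from the same reads and add no separate observation. The joined signal was close to the sum of both replicates at each, with sums of 763, 169 and 110 for rbd-1, pro-1 and fib-1. The ratio of replicate 1 to replicate 2 was 2.50 at rbd-1, 2.80 at pro-1 and 2.14 at fib-1. The ratios at rbd-1 and pro-1 fell between the quartiles of all matched IDR peaks, and that at fib-1 was just under the lower one. Summits in the replicates were 1, 2 and 19 bp apart at rbd-1, pro-1 and fib-1.

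**Figure D1:**
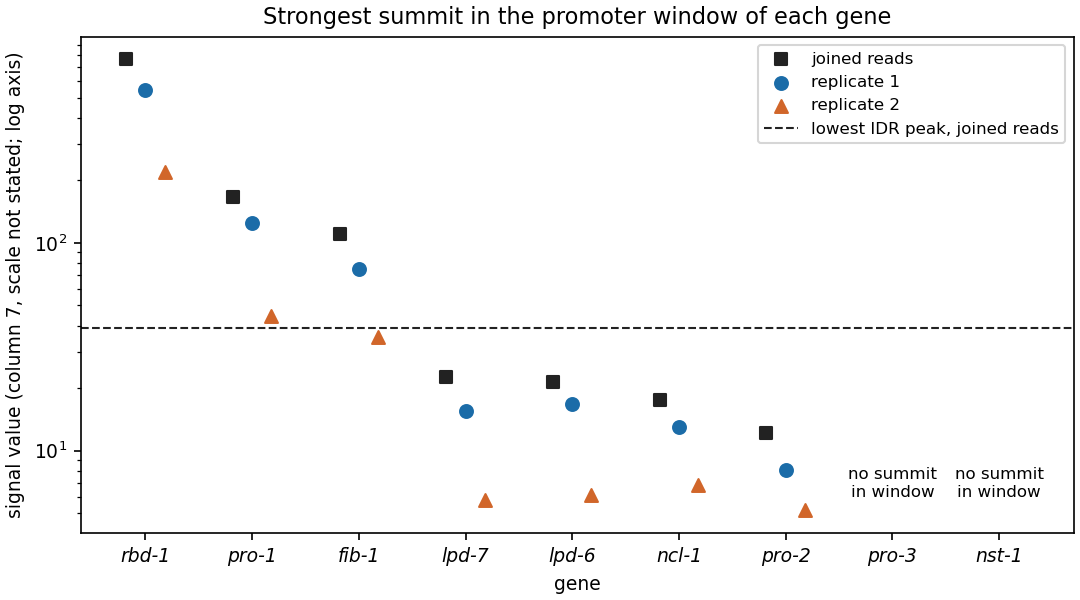
Signal value of the strongest summit in each gene's promoter window in the joined (square), replicate 1 (circle) and replicate 2 (triangle) lists, on a log axis; the dashed line is the weakest IDR peak of the joined list, at 39.1. rbd-1, pro-1 and fib-1 stand above the line with joined signals of 765, 167 and 110, the joined signals of lpd-7, lpd-6, ncl-1 and pro-2 are between 12.1 and 22.5, and pro-3 and nst-1 have no summit in the window.

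The pro-3 gene (WBGene00012676, Y39B6A.14; chromosome V, 19101347 to 19118412, minus strand), related to yeast SDA1 of large subunit assembly, had no summit in its window in any list. An IDR peak that overlapped the window had its summit 6 bp beyond the window's edge, 1006 bp upstream of the 5′ end of pro-3. This peak ranked 31 in the joined list with a signal of 384, and had 287 at rank 28 in replicate 1 and 98.1 at rank 34 in replicate 2. By signal it would come between rbd-1 and pro-1. Its summit, at 19119418 in a region from 19119296 to 19119554, lay 7 bp inside the 5′ untranslated region of Y39B6A.13. That gene stands between the peak and pro-3 on the same strand and ends 93 bp before pro-3 begins. With a window of 2000 bp upstream, or with overlap of the region in place of the summit, pro-3 would be counted and 4 of the 9 genes would have an IDR peak.

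**Figure D2:**
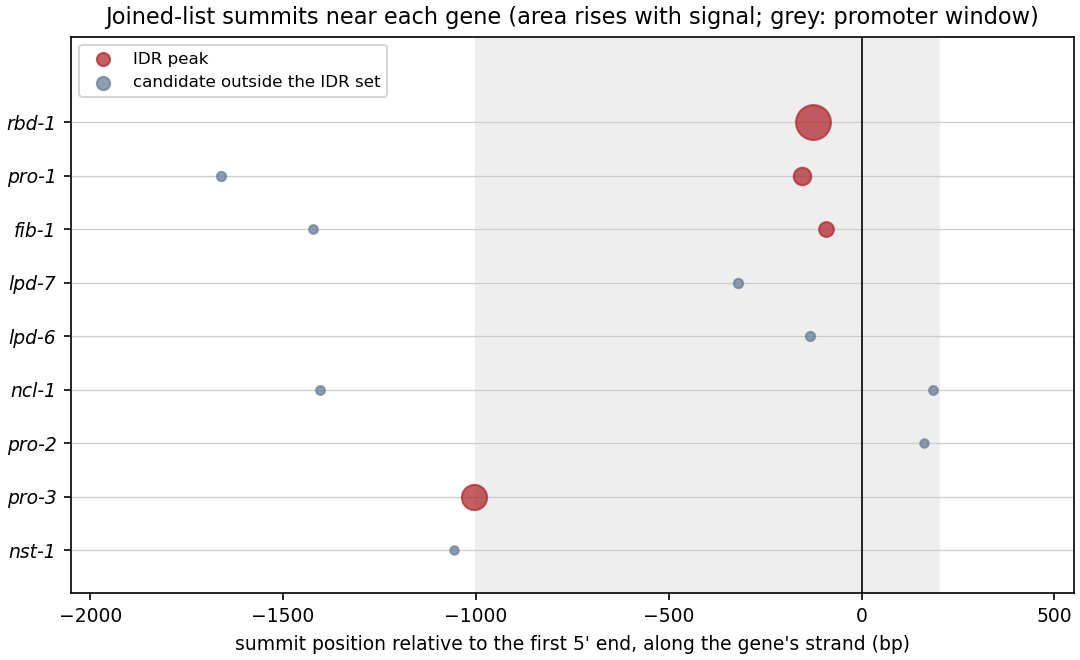
Positions of joined-list summits from 2000 bp upstream to 500 bp downstream of the first annotated 5′ end of each gene, along its strand; red circles are IDR peaks, blue-grey circles are candidates outside the IDR set, circle area rises with signal, and grey shading is the promoter window. The IDR summits of rbd-1, pro-1 and fib-1 lie 127, 155 and 93 bp upstream of the 5′ end. The red circle on the pro-3 line is the summit in the 5′ untranslated region of Y39B6A.13, 1006 bp upstream of pro-3 and just outside its window.

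The other large subunit genes had candidates well down the joined list or none. In front of lpd-7 (WBGene00003063; chromosome III, 7573350 to 7575263, plus strand), the relative of pescadillo, the joined signal was 22.5 at rank 2648. Replicate 1 had 15.6 at rank 3068 and replicate 2 had 5.76 at rank 21375. The replicate 2 summit was 504 bp from that of replicate 1, in coding sequence of rpl-9, so the replicates did not mark the same place. The joined summit was 320 bp upstream of lpd-7 and 199 bp upstream of rpl-9, the divergent gene of a large subunit ribosomal protein. It also lay in the window of the non-coding RNA gene R13A5.16.

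At pro-2 (WBGene00007413; chromosome II, 10339727 to 10345112, minus strand), the relative of yeast NOC2, the candidate lay 162 bp downstream of the 5′ end, in a coding exon. Its signal was 12.1 in the joined list, 8.06 in replicate 1 and 5.16 in replicate 2, with ranks of 26991, 27713 and 26980. The gene nst-1 (WBGene00003821; chromosome II, 8281162 to 8283208, minus strand), which encodes nucleostemin, a nucleolar GTPase, had no summit in its window in any list. The nearest joined candidate was 1056 bp upstream in coding sequence of the chaperonin gene cct-4, at rank 26586, and the nearest in replicate 2 was 1002 bp upstream, 2 bp outside the window. Nearest IDR summits were 5576 bp from pro-2, 6914 bp from nst-1 and 11086 bp from lpd-7.

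The gene of the negative regulator, ncl-1 (WBGene00003559; chromosome III, 7719729 to 7738105, plus strand), has 8 annotated 5′ ends, and its windows cover 4464 bp against 1201 bp for a gene with a single 5′ end. Each candidate list held 3 summits in these windows, all in introns of ncl-1. The strongest had a joined signal of 17.6 at rank 8159, 13.1 at rank 6434 in replicate 1 and 6.83 at rank 13827 in replicate 2. The nearest IDR summit was 34.6 kb away.

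The last large subunit gene, lpd-6 (WBGene00003062; chromosome I, 3144411 to 3147793, minus strand), belongs to the Brix-domain family of assembly factors. Its candidate had a signal of 21.5 at rank 3354 in the joined list, 16.8 at rank 2162 in replicate 1 and 6.15 at rank 18294 in replicate 2. The joined summit was 133 bp upstream of lpd-6 and 88 bp upstream of dscc-1, a divergent gene of sister chromatid cohesion, and the nearest IDR summit was 114846 bp away. Among these weaker candidates the order by signal was lpd-6, lpd-7, ncl-1 and pro-2 in replicate 1 and ncl-1, lpd-6, lpd-7 and pro-2 in replicate 2. Both replicates had lpd-6 above lpd-7 and pro-2 last, while the joined list had lpd-7 above lpd-6. In replicate 2, however, lpd-6, lpd-7 and pro-2 were all below the median signal of that list, 6.63. The lpd-7 summit there was also 504 bp from that of replicate 1. The place of ncl-1 differed between the replicates as well, so the order is not resolved.

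By count, 3 of 9 genes had an IDR summit in the window, where 3.47% of all protein-coding genes did. In the joined list 7 of 9 had a candidate of any rank, against 43.0% of all genes. The same 7 had a candidate in replicate 1, where the share of all genes was 42.6%, and in replicate 2, where it was 41.9%. A candidate in all of the joined and replicate lists was found for the 7 and for 20.9% of genes. Both replicates alone placed rbd-1, fib-1 and pro-1, and no other of the 9, among their 542 strongest regions, which held for 2.25% of genes. Because the genes were chosen with these lists in view, nothing is read from these counts against the shares of all genes. The edge of the IDR set fell between rank 542, with a signal of 39.12 on chromosome X in no protein-coding window, and rank 543, with 39.10 in the window of ima-2, a gene of nuclear import.

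Gene arrangement differed among the 9. Of them, 5 had a divergent neighbour starting within 1000 bp upstream (rbd-1, fib-1, nst-1, lpd-6 and lpd-7), an arrangement of 17.5% of all genes. Of these 5, rbd-1 and fib-1 had an IDR summit, as did 11.2% of all genes so arranged. The genes pro-1 and pro-3 had a neighbour on the same strand, and pro-1 had an IDR summit in its window, as did 2.67% of such genes. The genes pro-2 and ncl-1 had no neighbour within 1000 bp upstream of their outermost 5′ end and no IDR summit. For genes of that kind the share with an IDR summit was 1.38%. A weaker summit in an inner window of ncl-1, at joined rank 13818, also lay in the window of ZK112.4. A divergent pair shares its upstream DNA, so a summit there enters both genes' counts.

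A list of 53 genes of the pathway was then read in the same way; it includes the 9, and 25 further names on it were not found in the annotation. In all, 10 of the 53 (18.9%) had an IDR summit in the window, and so did 7 of the 44 that are not among the 9, where the share of all protein-coding genes was 3.47%. By arrangement, 5 of 24 list genes with a divergent neighbour had an IDR summit, and 5 of 20 with one on the same strand. With none within 1000 bp it was 0 of 9. The shares of all genes so arranged were 11.2%, 2.67% and 1.38%. The list too was drawn up with earlier results of these peaks known, and nothing is read from its counts. The snoRNP proteins had 4 of 8, the small subunit genes 3 of 19, the large subunit genes 2 of 19 and the other nucleolar genes 1 of 7. A joined candidate of any rank was found for 7, 19, 10 and 5 genes of these groups, where 43.0% of all genes had one. Of the 19 small subunit genes, 6 had no candidate in 1 of the replicate lists, and dcaf-13 and toe-1 share a single joined summit. Most of the names not found were of large subunit genes. The snoRNP group alone was also looked up by sequence name, which brought in Y48A6B.3. The groups are thus not equally complete, and the difference between them was not tested.

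**Figure D3:**
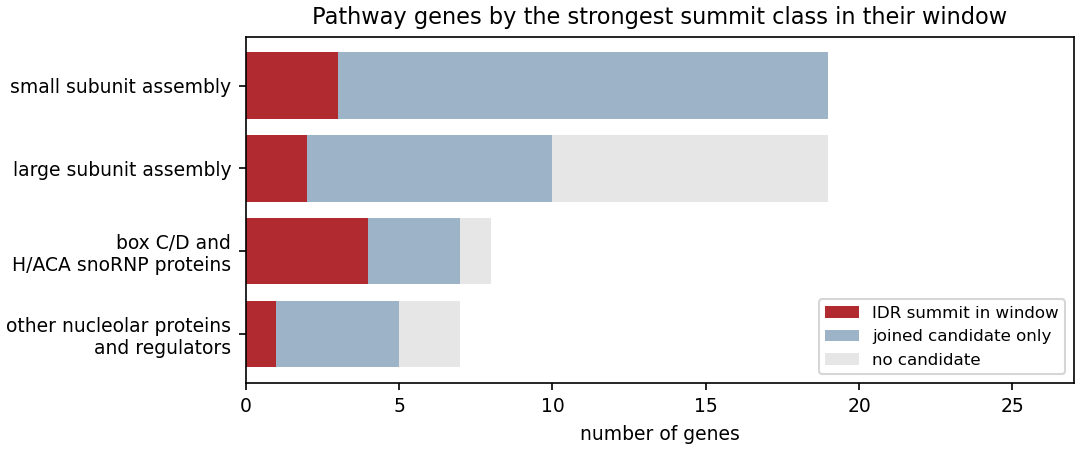
Number of pathway genes in each role group whose promoter window held an IDR summit (red), a joined-list candidate only (blue-grey) or no candidate (light grey). IDR summits were found for 4 of 8 snoRNP genes, 3 of 19 small subunit genes, 2 of 19 large subunit genes and 1 of 7 others.

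In the small subunit group nol-6, whose product binds the U3 snoRNA particle, had the strongest site after rbd-1. Its signal was 243 at rank 65 in the joined list, 195 at rank 54 in replicate 1 and 45.8 at rank 94 in replicate 2, with the summit 230 bp upstream and in the window of Y51H7C.3 as well. The small subunit gene wdr-46 had 74.0 at rank 251, 57.0 in replicate 1 and 17.4 in replicate 2, with the summit 176 bp upstream and no sharing gene. In the large subunit group rpl-24.2, a relative of ribosomal protein L24 that acts in assembly, had 106 at rank 177, 66.1 in replicate 1 and 36.7 in replicate 2, 163 bp upstream.

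The snoRNP genes with an IDR summit beside fib-1 were weaker. The core box C/D gene nol-58 had a joined signal of 42.6 at rank 469, in a window shared with zip-4. Of the box H/ACA genes, nola-3 had 54.0 at rank 369, shared with C25A1.16, and Y48A6B.3, which RefSeq describes as a putative subunit 2 of that complex, had 53.8 at rank 371, shared with fipr-17. The replicates ranked nol-58 and nola-3 far apart, at 490 and 333 in replicate 1 but 3853 and 3775 in replicate 2. With 1 gene per summit, neither nol-58 nor nola-3 kept its IDR summit. The nola-3 summit was 615 bp upstream. The ATPase gene ruvb-2 had 62.8 at rank 313, 137 bp upstream, and ranked 309 in replicate 1 and 663 in replicate 2. Just below the IDR edge came nol-56 with 37.6 at rank 576, followed by snu-13 with 30.5 at rank 848 and rrp-8 with 25.4 at rank 1561. For nol-56, a core box C/D gene, the strongest summit ranked 437 in replicate 1, 316 bp upstream, and 1537 in replicate 2, 824 bp upstream. The strongest summits of the replicates were thus at different places, and weaker ones were not compared. The snu-13 summit was in replicate 1, with 28.8 at rank 549, and replicate 2 had no candidate in that window.

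**Figure D4:**
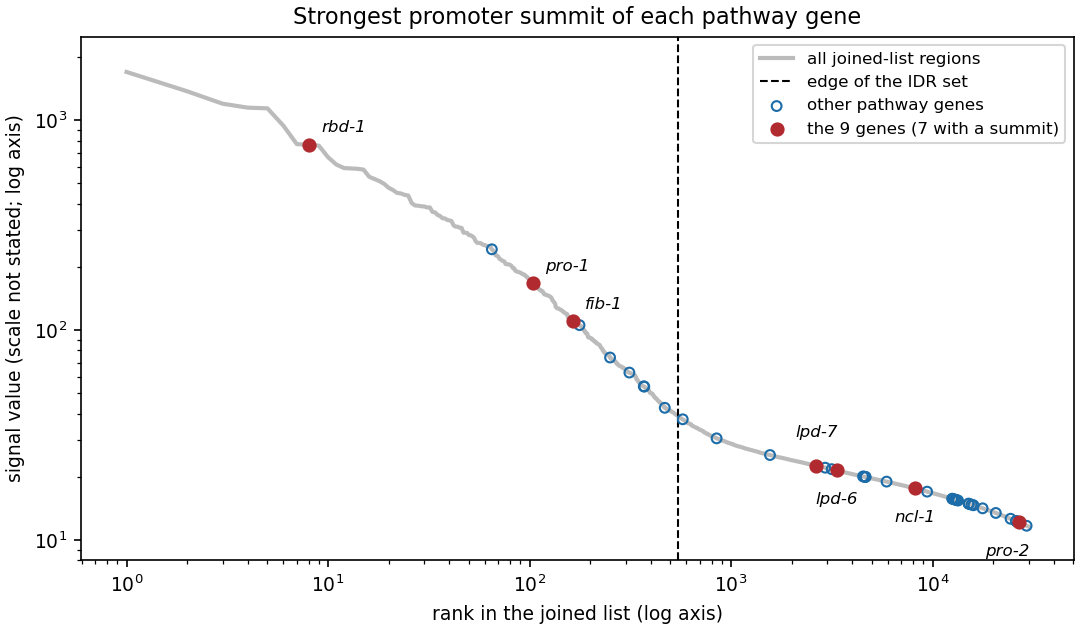
Signal against rank for all 30000 joined-list regions (grey line), with the strongest promoter summit of each of the 9 genes (red, named; 7 had one) and of the other pathway genes (open blue circles), on log axes; the dashed line is the edge of the IDR set after rank 542. rbd-1 stands at rank 8, pro-1 at 104 and fib-1 at 164, while lpd-7, lpd-6, ncl-1 and pro-2 lie from rank 2648 to rank 26991.

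Sequence at the summits was searched on either strand for the 6-base word ACGCGC, for GACGCA and also for CGTAAA. Earlier results of these peaks had brought up these words, so their frequency is a description. Within 50 bp of the summit on either side, ACGCGC was found in 19.4% of IDR summits, 1.21% of the 29458 other joined summits and 2.50% of 29773 promoter stretches of the same length centred 150 bp upstream of a 5′ end. These stretches were taken at every annotated 5′ end, so they can overlap IDR summits and each other. For GACGCA the shares were 17.5%, 1.89% and 3.41%, and for CGTAAA they were 28.0%, 4.37% and 4.77%. Base composition moved with this: mean GC content was 45.8% at IDR summits, 33.0% at other joined summits and 34.6% in promoter stretches, and its part in the word shares was not tested. Among the 7 genes with a summit in the window, rbd-1 and pro-1 had CGTAAA, lpd-6 had GACGCA in the joined window, and fib-1, pro-2, lpd-7 and ncl-1 had none of the words. The IDR peak of fib-1 thus held none of the 3 words in this stretch, though it had the highest GC content of the 7, at 51.5%.

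The summit sequences of nol-6 and wdr-46 are printed because nol-6 resembles rbd-1 and wdr-46 does not. The nol-6 stretch is chrII:1437679-1437779 on the minus strand and the wdr-46 stretch is chrIV:12372027-12372127 on the plus strand, both between genes on WBcel235 (RefSeq copy), with CTCCGA and CGTAAA in capitals.
nol-6: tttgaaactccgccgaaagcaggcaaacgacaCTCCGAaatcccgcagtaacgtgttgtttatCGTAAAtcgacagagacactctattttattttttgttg
wdr-46: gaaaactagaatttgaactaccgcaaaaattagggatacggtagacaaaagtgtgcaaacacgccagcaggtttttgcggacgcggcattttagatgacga

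Side by side, the summits of rbd-1, nol-6 and the peak upstream of pro-3 shared the same 12 letters, CGTAAATCGACA, read along each gene's strand. The first 8 of these, CGTAAATC, were also in the pro-1 stretch. The stretches of rbd-1, nol-6 and the pro-3 upstream peak also held CTCCGA before it, starting 30 bp ahead of CGTAAATC in rbd-1 and 31 bp ahead in nol-6 and the pro-3 upstream peak. For pro-3 the CTCCGA lies outside the 30 bases printed. In rbd-1 the word CGTAAA began 12 bp after the summit, in nol-6 13 bp after it, in the pro-3 upstream peak 4 bp after it, and in pro-1 12 bp before it. Shared runs of 8 bases or more also occurred without these words. The fib-1 and pro-1 stretches shared 8 bases, and pro-1 and wdr-46 shared 9.

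These longer words were picked from the printed sequences after they had been seen, and the peaks they came from are among those counted. On either strand CGTAAATCGACA was in 52 of the 542 IDR windows (9.59%), in 57 of the 29458 other joined windows (0.193%) and in 62 of the 29773 promoter stretches (0.208%). By rank, 23 of the 100 strongest IDR peaks held it and 29 of the other 442 did. The shorter CGTAAATC was in 113 IDR windows (20.8%), in 0.56% of the other joined windows and in 0.665% of promoter stretches. CTCCGA alone was in 8.49%, 2.32% and 2.67%. With CTCCGA starting 30 or 31 bp before CGTAAATC on the same strand there were 13 IDR windows (2.4%), 1 other joined window and 10 promoter stretches, so rbd-1, nol-6 and the pro-3 upstream peak are 3 of 13 such IDR sites. Promoter stretches can cover the same sites as IDR windows, so their counts are not a separate background. A match of letters is a description and was not tested as a binding site.

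**Figure D5:**
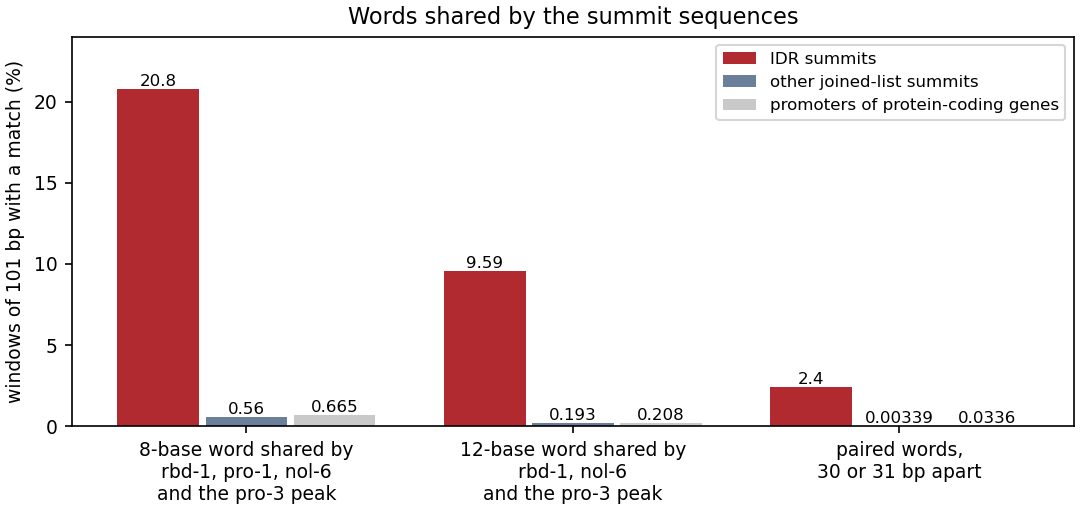
Share of sequence windows (50 bp on either side of the centre), in percent, that hold the 8-base word, the 12-base word, or the 6-base and 8-base words starting 30 or 31 bp apart, at IDR summits (red), other joined-list summits (blue-grey) and promoter stretches (light grey). The 12-base word shared by rbd-1, nol-6 and the pro-3 upstream peak is in 9.59% of IDR windows, 0.193% of other summits and 0.208% of promoter stretches.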

How the data were processed

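ChIP-seq peak lists of 1 group with 2 biological replicates were used. The signal values, column 7 of the lists the authors deposited, come from their peak calling on a scale that is not stated. Per the notes deposited beside the sample files, the lists derive from alignments and control reads that were not analysed here. The aligner and caller, with versions, were not given in the sources used here, and depth is unknown. The ce11 lists were used, and those on ce10 were not.

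Regions were ranked by signal within a list. A summit was given to every protein-coding gene (Ensembl release 115, WBcel235, mitochondrial genes left out) whose window, 1000 bp upstream to 200 bp downstream of any 5′ end, held it. A gene could have several summits and a summit several genes. Coordinates are 1-based. Words were counted on both strands. Assignment was checked on simulated peaks. Python 3.11.15, pandas 2.3.3, numpy 2.4.6 and matplotlib 3.10.9 were used. No statistical test was made, since earlier results of these data were known when the genes, the pathway list and the words were chosen.

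Named are the 9 genes, the protein-coding genes sharing their IDR or strongest joined summits, every pathway gene with an IDR summit, the next 3 by joined signal, and the peaks at the IDR edge. Other genes named (those carrying the nearest upstream peak or candidate, upstream neighbours, sharing partners of pathway genes, and dcaf-13 and toe-1) were added after their values were seen. Alternatives covered the IDR threshold, the window, the assignment and each replicate alone.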

Additional observations from a re-analysis of the deposited data

How the results depend on the processing

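Of 24 alternative values of the counts, 21 stayed within 1.5 times the value reported and 3 moved further. Keeping the top 50% of the IDR set left 6 pathway genes in place of 10, without nol-58, nola-3, Y48A6B.3 and ruvb-2, and 378 protein-coding genes in place of 694. With 1 gene per summit, 449 protein-coding genes were counted. Fewer peaks or assignments enter these counts by construction. The count of 3 among the 9 genes became 4 with the 2000 bp window or with region overlap, both adding pro-3, and 2 with 1 gene per summit, where the rbd-1 peak went to T23F6.3. From the strongest regions of a single replicate the count was 3 either way, while pathway genes numbered 11 without replicate 2 and 8 without replicate 1. With 1 gene per summit 7 pathway genes were counted, without nol-58, nola-3 and rbd-1, and with the 500 bp window 9, without nola-3. The count of genes with a word was 2 without replicate 1, since the lpd-6 summit of replicate 2 lay 68 bp from that of replicate 1. For the 7 genes with a joined summit, all 19 alternative ranks equalled the rank reported. These alternatives changed only the window or used region overlap within the joined list. A summit that stayed in the window could thus lose its place only to a stronger one. Ranks in the replicates were not among them, so this does not show that the ranks are stable. The other 2 gained a joined summit with the 2000 bp window or with region overlap, pro-3 at rank 31 and nst-1 at rank 26586. With the 500 bp window pro-2 and ncl-1 had no value. No paired analysis was possible because there is 1 group and no test. Unknown depth, a signal on no stated scale and control reads that were not analysed here limit what a low rank shows.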
